A study of Mus musculus with 42 samples.

Results

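Expression of 37 genes of the vessel wall and of vessel growth was followed in lymph nodes and joint soft tissue of mice that had knee arthroplasty, surgery in which an implant takes the place of joint surface. The genes were taken by symbol, and each was found under 1 Ensembl identifier in both count tables, as 37 of the 36604 genes that the tables share. They comprise 33 blood vessel genes (7 receptors, 15 junction, adhesion and identity genes, 4 transcription factors, 4 ligand and tip cell genes and 3 genes of venous endothelium and leukocyte adhesion) and 4 lymph vessel genes. All 37 passed the filter on low counts in both tissues.

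All libraries came from wild-type C57BL/6 mice, whose age is not given in the sources used here. The joint set held 24 libraries in groups of 4: RST on days 3, 7, 14, 21 and 35, and LST on day 35. RST and LST are codes that the labels leave unexplained, and a difference between an earlier RST day and LST day 35 is one of label and of day together. A further 18 libraries, 3 per group, were of nodes named Implant, ContraImplant or NoImplant and taken on day 7 or day 14. An Implant and a ContraImplant node with 1 animal number came from 1 mouse, the ContraImplant node from its side without surgery, and NoImplant nodes came from other mice that had none. Whole pieces of tissue were sequenced, so fewer endothelial cells and less RNA of a gene per endothelial cell cannot be told apart. Whether each joint replicate was a different mouse is not stated, so the p-values there rest on a spread that could be technical in part.

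Blood and lymph vessels are lined by endothelial cells, whose survival and sprouting are driven mainly by VEGF ligands acting on the receptor tyrosine kinases encoded by Kdr, Flt1 and Flt4. Angiopoietins act through the Tie receptors on vessel stability, and apelin and its receptor mark sprouting endothelium. In inflamed tissue, venous endothelium displays selectins that catch passing leukocytes, and lymph vessels, specified by the transcription factor Prox1, drain fluid and cells to the nodes.

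The promoter windows of 5 members whose levels moved in contrasting ways are shown, each being 300 bases around the annotated start from RefSeq (GRCm38.p6), read 5′ to 3′ along the gene's strand. Kdr and Flt1 encode VEGF receptors and were lower on RST days 3 and 7 than in LST day 35. Apln encodes apelin, and Sele and Selp encode the endothelial selectins. Capitals mark AGGAAG, a core sequence bound by ETS factors such as the member Erg, or its complement CTTCCT on the other strand.
Kdr (chr5:75978406-75978705, minus strand): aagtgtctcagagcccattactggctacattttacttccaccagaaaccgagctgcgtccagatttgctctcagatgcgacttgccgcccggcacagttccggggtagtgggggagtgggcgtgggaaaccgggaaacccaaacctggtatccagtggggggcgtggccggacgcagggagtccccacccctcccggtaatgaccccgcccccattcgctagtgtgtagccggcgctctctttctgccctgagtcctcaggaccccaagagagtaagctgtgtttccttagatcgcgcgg
Flt1 (chr5:147725962-147726261, minus strand): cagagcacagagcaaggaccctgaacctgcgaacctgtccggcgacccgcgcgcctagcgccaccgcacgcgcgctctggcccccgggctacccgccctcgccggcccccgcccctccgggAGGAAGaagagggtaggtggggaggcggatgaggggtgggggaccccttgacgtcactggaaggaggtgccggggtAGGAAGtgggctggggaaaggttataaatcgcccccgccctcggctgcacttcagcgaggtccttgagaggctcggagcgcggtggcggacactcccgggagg
Apln (chrX:48034804-48035103, minus strand): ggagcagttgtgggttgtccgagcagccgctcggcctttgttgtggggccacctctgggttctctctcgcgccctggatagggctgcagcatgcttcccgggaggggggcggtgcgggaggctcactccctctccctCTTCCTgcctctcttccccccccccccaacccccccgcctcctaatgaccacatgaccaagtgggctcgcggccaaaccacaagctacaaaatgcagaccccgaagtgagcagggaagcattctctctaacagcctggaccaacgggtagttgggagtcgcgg
Sele (chr1:164047984-164048283, plus strand): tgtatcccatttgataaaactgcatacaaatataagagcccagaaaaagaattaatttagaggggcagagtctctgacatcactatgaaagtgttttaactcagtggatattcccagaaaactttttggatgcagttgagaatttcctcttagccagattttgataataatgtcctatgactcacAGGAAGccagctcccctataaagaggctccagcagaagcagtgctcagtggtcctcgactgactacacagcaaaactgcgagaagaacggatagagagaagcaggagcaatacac
Selp (chr1:164115014-164115313, plus strand): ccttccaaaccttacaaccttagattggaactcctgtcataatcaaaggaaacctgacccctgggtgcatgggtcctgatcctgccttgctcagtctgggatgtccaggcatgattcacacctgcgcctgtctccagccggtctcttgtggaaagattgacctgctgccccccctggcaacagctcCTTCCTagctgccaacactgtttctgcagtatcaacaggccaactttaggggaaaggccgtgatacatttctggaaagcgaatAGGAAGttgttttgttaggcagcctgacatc
The letters were present in 13 of the 27 windows of the 21 members that have a window in the table used, and in 35.4% of all 32851 windows of that length. Kdr held none, Apln and Sele held 1 each, and Flt1 and Selp held 2 each. A further pair of letter strings was searched on both strands. AACAAT, a SOX core, was found in 4 of the 27 member windows and in 10.7% of all windows. ACGTG, a hypoxia response core, was found in 1 of the 27 (a window of Vegfa) and in 19.6% of all windows. Neither occurred in the 5 windows shown. These are matches of letters and were not tested as binding sites.

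Depth was 17842090 to 28024003 counts per joint library and 22041900 to 44371001 per node library. Levels are given as CPM, counts scaled to a common library size, after TMM, edgeR's normalisation between libraries. A gene passed where edgeR's quasi-likelihood test gave a Benjamini-Hochberg adjusted p under 0.05 over all genes of the tissue. The panel's defining endothelial markers were found in every group of both tissues, none of the 6 (Pecam1, Cdh5, Tie1, Cldn5, Emcn, Esam) being at 0. RST day 21 replicate 2 stood apart from the other day 21 libraries, with mean fibroblast marker log2 CPM of 9.55 against 7.94 to 8.69, and ContraImplant day 7 replicate 2 from its group, with an adipocyte marker mean of 9.47 against 2.70 and 5.25. The counts of members in comparisons that use these libraries are also given without them.

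Per kilobase of exon, Vegfa was the highest member in LST day 35 tissue at 77.9 ± 3.78 CPM per kb (SD, n = 4), followed by Cdh5, the endothelial cadherin, at 19.3 ± 2.41. Eng, a TGF-beta co-receptor, stood at 12.2 ± 2.21 and Pecam1, the endothelial surface marker CD31, at 10.1 ± 1.17 CPM per kb, which overlap within their SDs. At the other end were the leukocyte adhesion genes Selp at 0.218 ± 0.0445 and Sele at 0.0407 ± 0.0234 CPM per kb. In NoImplant day 7 nodes the order opened with Plvap, which encodes the diaphragm protein of fenestrated vessels, at 239.6 ± 26.8 CPM per kb (SD, n = 3), ahead of the tight junction gene Cldn5 at 81.0 ± 8.65 and Pecam1 at 75.9 ± 5.33. Vegfa stood 14th of the 37 members there at 12.3 ± 3.05 CPM per kb, and Sele was again the lowest.

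In joint soft tissue the blood vessel genes were compared by mean log2 CPM, in which each gene counts alike. On that measure they were near the LST level on day 3, above it on days 7, 14 and 21, and near it again on day 35. Their mean log2 CPM was 3.81 ± 0.07 on RST day 3, 4.42 ± 0.08 on day 7, 4.56 ± 0.12 on day 14, 4.28 ± 0.22 on day 21 and 3.79 ± 0.05 on day 35, against 3.69 ± 0.14 in LST day 35 (SD, n = 4 each). The libraries of days 7, 14 and 21 all lay above the 4 LST libraries, whereas those of days 3 and 35 overlapped them. Lymph vessel genes took the values 2.05 ± 0.32, 2.96 ± 0.17, 3.14 ± 0.22, 2.91 ± 0.29 and 2.61 ± 0.14 on the same RST days, against 2.19 ± 0.19 in LST day 35, and on day 35 their 4 RST libraries still lay above the LST ones. Summed CPM of the blood vessel genes, in which abundant genes weigh most, gave another picture. It was 708 to 819 on RST day 3, below every LST library (1010 to 1200), and 1260 to 1490 on day 14, above them. On days 7, 21 and 35 the sums of 1020 to 1130, 1130 to 1290 and 1040 to 1080 CPM overlapped LST. The mean CPM of 23 members was highest on RST day 14, of 10 on day 7, of 2 (Ptprb and Tek) on day 21 and of 2 (Flt1 and Vegfa) on day 35.

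**Figure D1:**
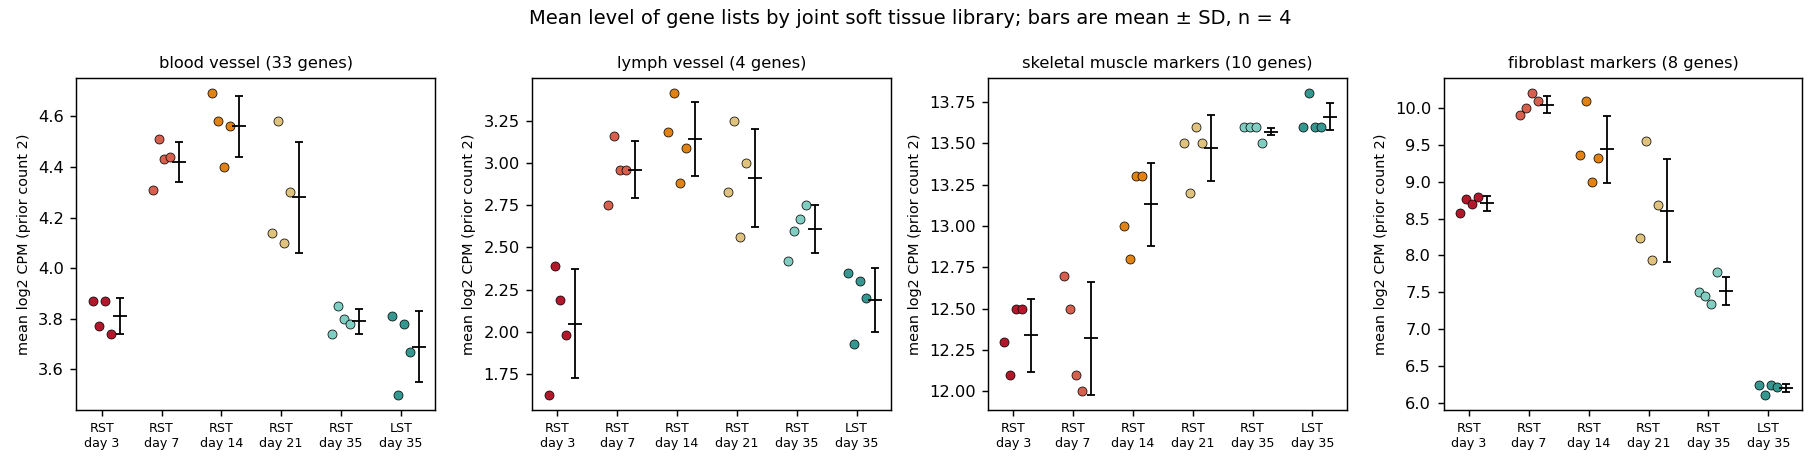
Mean log2 CPM (prior count 2) of the 33 blood vessel genes, the 4 lymph vessel genes, 10 skeletal muscle markers and 8 fibroblast markers in each joint soft tissue library, by group, with mean and SD at the right of each group (n = 4). Blood vessel libraries of RST days 7, 14 and 21 lie above the LST day 35 libraries, muscle markers are lowest on RST days 3 and 7, and fibroblast markers are highest on RST day 7.

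Other cell types moved over the same days. Against LST day 35, all 10 skeletal muscle markers passed as lower on RST day 3 and on day 7, 7 of 10 on day 14, and none on day 21 or 35. Their summed level was 72000 to 95500 CPM on day 3, 56500 to 94300 on day 7 and 109000 to 157000 on day 14, against 182000 to 202000 CPM in LST. Fibroblast markers passed as higher for 7 of 8 genes on day 3 and 8 of 8 on days 7, 14 and 21, with summed levels of 26500 to 34700 CPM on day 7 against 1050 to 1170 in LST. All 8 macrophage markers were higher on days 3 to 21, with 1380 to 2250 CPM on day 3 against 76.6 to 107 in LST, and 7 or 8 of 8 cell cycle genes were higher on those days. No marker of these 4 lists was at 0 in a group, and their part in the vessel gene results was not tested.

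On RST day 3, 9 of 37 members were higher than in LST day 35 and 10 lower, while 38.6% of all 16149 genes tested were higher and 30.1% lower. On day 7, 23 were higher and 5 lower (41.0% and 35.1% of all genes). On day 14, 30 were higher and 2 lower (33.4% and 24.5%), and on day 21, 20 were higher and 1 lower (21.7% and 5.42%). Without RST day 21 replicate 2, 16 members passed on day 21, and the calls of Ramp2, Pecam1, Mmrn2, Sox7 and Vegfa were lost (edgeR adjusted p of 0.0781 to 0.117). Fewer of all genes passed without that library too, as given at the end. The members' median log2 fold change was -0.08 on day 3, 0.47 on day 7, 0.71 on day 14 and 0.41 on day 21, beside 0.09, 0.08, 0.03 and 0.02 over all genes. All of these contrasts share the 4 LST libraries.

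**Figure D2:**
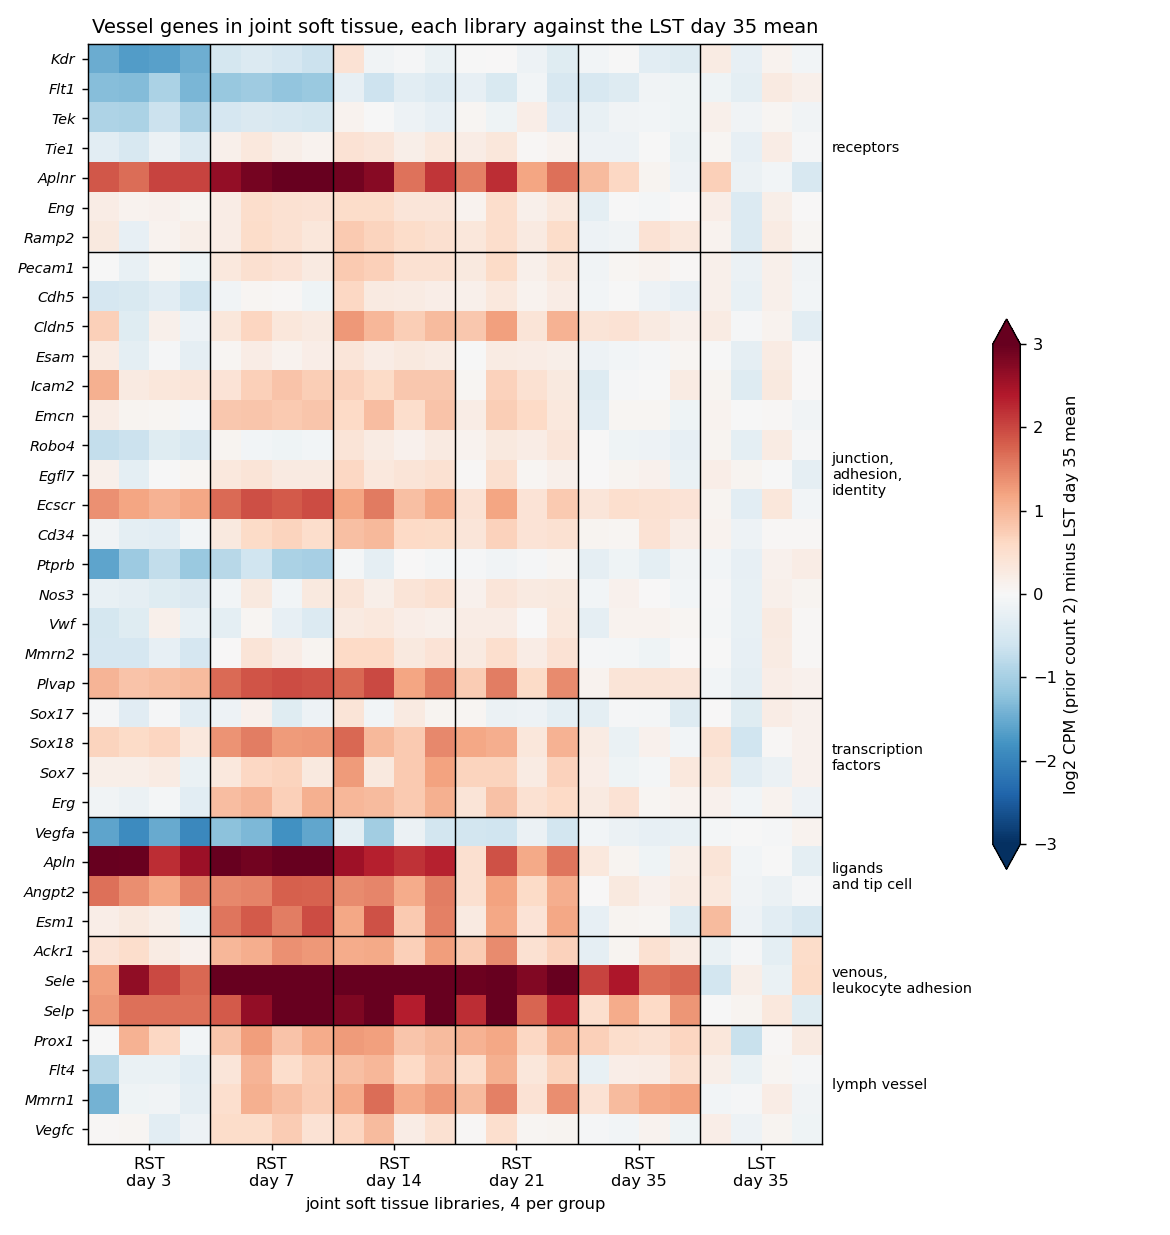
Difference in log2 CPM (prior count 2) between each of the 24 joint soft tissue libraries and the LST day 35 mean for the 37 members, grouped by role, with red higher and blue lower and colours saturating at 3. Kdr, Flt1, Tek, Ptprb and Vegfa are blue on RST days 3 and 7, while Aplnr, Apln, Sele and Selp are red up to day 21.

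Kdr, Flt1 and Tek were lower on RST days 3 and 7 than in LST day 35. Kdr, the main signalling receptor for VEGF-A (chr5:75932827-75978458, minus strand, mm10), had 21.4, 18.6, 19.4 and 21.5 CPM on RST day 3 and 41.7, 44.8, 41.9 and 38.2 on day 7, against 70.6, 50.8, 63.9 and 56.1 CPM in LST day 35. Neither RST group overlapped the LST libraries. The log2 fold change was -1.58 ± 0.13 on day 3 (SE, edgeR adjusted p = 9.34e-10) and -0.53 ± 0.12 on day 7 (edgeR adjusted p = 0.000543), and on day 14 Kdr averaged 61.5 ± 12.9 CPM (SD, n = 4), within the LST range in 3 of 4 libraries.

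Flt1 encodes VEGF receptor 1, a high-affinity receptor that also acts as a decoy (chr5:147561604-147726011, minus strand, mm10). It had 29.7, 29.4, 37.4 and 27.9 CPM on RST day 3 and 32.9, 34.8, 32.0 and 33.6 on day 7, against 66.7, 58.8, 87.4 and 80.9 CPM in LST day 35. The day 3 and day 7 libraries all lay below every LST library. Its log2 fold change was -1.24 ± 0.13 on day 3 and -1.14 ± 0.13 on day 7 (edgeR adjusted p = 1.82e-08 and 3.7e-08), and still -0.41 ± 0.12 on day 14 (edgeR adjusted p = 0.00723). Kdr was higher on day 7 than on day 3 by 1.04 ± 0.13 on the log2 scale (edgeR adjusted p = 2.07e-06), while Flt1 differed by 0.10 ± 0.13 (edgeR adjusted p = 0.546) between those days and by 0.73 ± 0.12 between day 14 and day 7 (edgeR adjusted p = 0.000182).

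Tek, the angiopoietin receptor Tie2, had 15.6, 15.5, 19.1 and 15.1 CPM on RST day 3, against 33.1, 27.5, 31.1 and 27.6 CPM in LST day 35, without overlap. It was lower, with log2 fold changes of -0.87 ± 0.10 on day 3 and -0.49 ± 0.10 on day 7 (edgeR adjusted p = 1.35e-07 and 0.000133). Its partner Tie1 was lower on day 3 only among the days compared with LST (-0.35 ± 0.09, edgeR adjusted p = 0.00166) and higher on day 14 (0.32 ± 0.09, edgeR adjusted p = 0.00507). Eng, and Ramp2, a subunit of the adrenomedullin receptor, had log2 fold changes of 0.11 ± 0.11 and 0.08 ± 0.15 on day 3 (edgeR adjusted p = 0.377 and 0.656) and were higher on day 14 by 0.44 ± 0.11 and 0.60 ± 0.14 (edgeR adjusted p = 0.00224 and 0.00129).

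Aplnr, the apelin receptor of sprouting and venous endothelium (chr2:85136225-85139923, plus strand, mm10), was the 1 receptor of the 7 that was higher on RST day 3. It had 21.9, 19.3, 24.5 and 24.7 CPM on RST day 3 and 37.5, 44.4, 50.3 and 48.5 on day 7, against 9.89, 5.29, 5.62 and 4.25 CPM in LST day 35. All RST libraries of days 3 to 21 lay above the LST libraries. The log2 fold change was 1.85 ± 0.28, 2.85 ± 0.29, 2.37 ± 0.28 and 1.63 ± 0.28 on days 3, 7, 14 and 21 (edgeR adjusted p = 5.42e-06, 1.07e-08, 6.03e-07 and 0.000169), and on day 35 Aplnr averaged 8.10 ± 2.78 against 6.26 ± 2.49 CPM. Within the 7 receptors, 1 was higher and 4 lower on day 3, 3 higher and 3 lower on day 7, 4 higher and 1 lower on day 14, and 2 higher on day 21. Over all genes 38.6% were higher and 30.1% lower on day 3, and 41.0% and 35.1% on day 7. The shares were 33.4% and 24.5% on day 14, and 21.7% and 5.42% on day 21. The receptor counts of day 7 were about the day 7 shares.

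**Figure D3:**
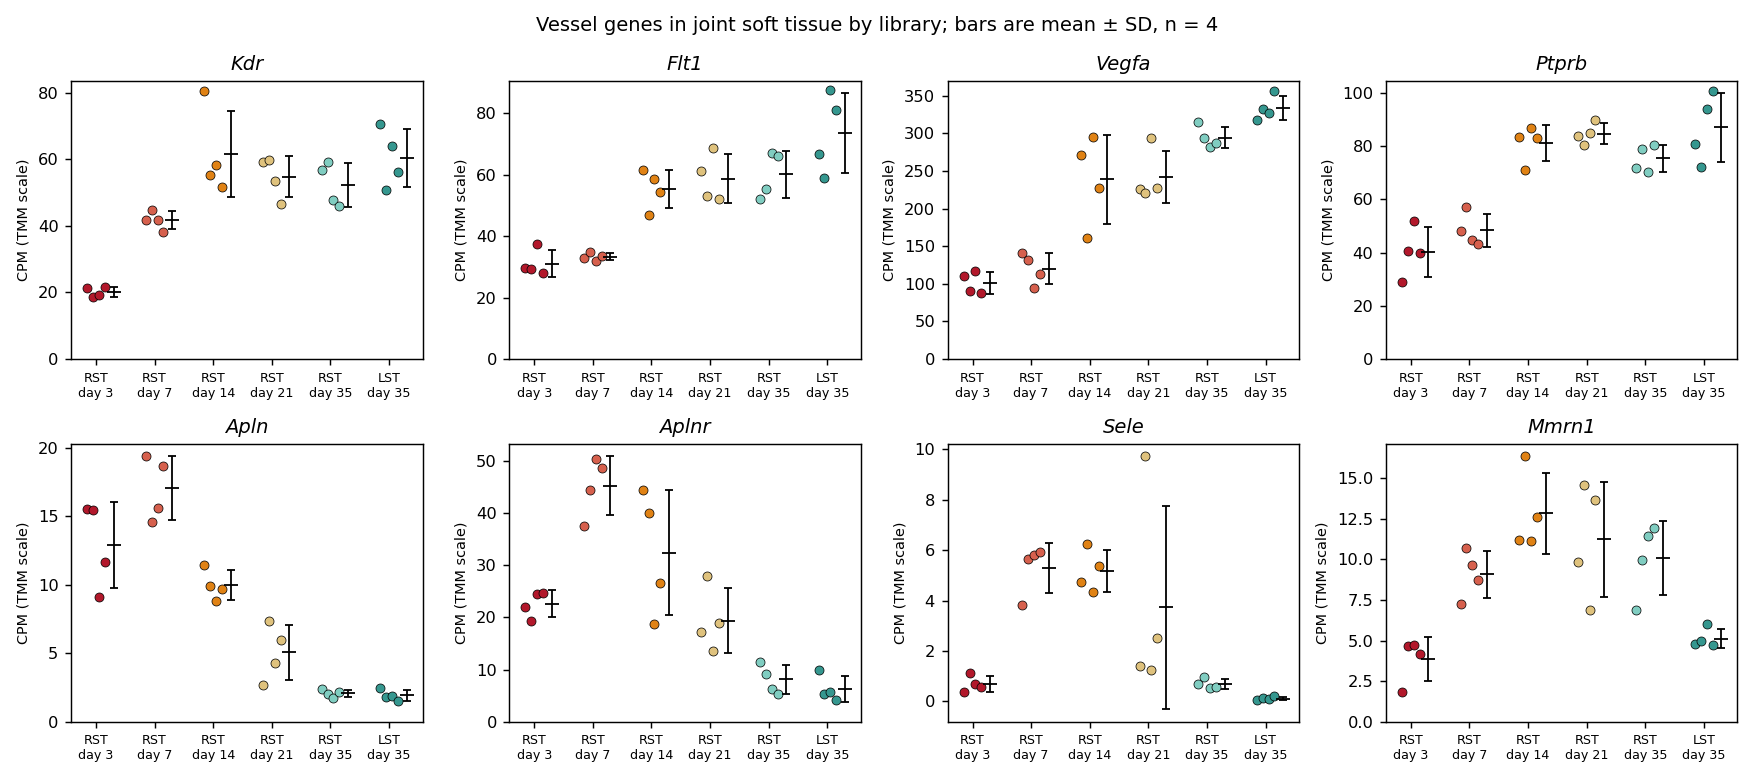
CPM on the TMM scale of 8 members in each joint soft tissue library, by group, with mean and SD at the right of each group (n = 4). Kdr, Flt1, Vegfa and Ptprb are lowest on RST days 3 and 7, Apln and Aplnr are highest on day 7, and 1 day 21 library has the highest Sele value at 9.72 CPM.

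The ligands divided in the same way. Vegfa, the main blood vessel growth factor, which is made by many cell types (chr17:46016993-46032369, minus strand, mm10), had 111, 90.6, 117 and 87.3 CPM on RST day 3 and 141, 132, 94.1 and 113 on day 7, against 319, 333, 327 and 356 CPM in LST day 35. No RST library of days 3 to 21 reached an LST value. The log2 fold change was -1.72 ± 0.15 on day 3, -1.47 ± 0.15 on day 7, -0.48 ± 0.15 on day 14 and -0.46 ± 0.15 on day 21 (edgeR adjusted p = 3.19e-09, 1.64e-08, 0.00909 and 0.0256). The day 21 call was lost, with an adjusted p of up to 0.0906, without LST day 35 replicate 2 or 4 or RST day 21 replicate 1, 2 or 4.

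Apln, which encodes apelin, a tip cell ligand (chrX:48025146-48034853, minus strand, mm10), had 15.5, 15.5, 9.10 and 11.6 CPM on RST day 3 and 19.4, 14.6, 15.6 and 18.7 on day 7, against 2.50, 1.78, 1.87 and 1.53 CPM in LST day 35. The groups did not overlap, and the day 7 mean was 8.84 times the LST mean on the fitted scale. Its log2 fold change was 2.75 ± 0.24, 3.14 ± 0.24, 2.37 ± 0.24 and 1.41 ± 0.24 on days 3, 7, 14 and 21 (edgeR adjusted p = 1.87e-09, 3.54e-10, 6.99e-08 and 0.000158). Apln was the 1 member that passed in each of the steps from day 7 to 14, 14 to 21 and 21 to 35, being lower each time by -0.77 ± 0.20, -0.96 ± 0.22 and -1.31 ± 0.24 (edgeR adjusted p = 0.00535, 0.0421 and 0.00952). The call between days 14 and 21 was lost, with an adjusted p of up to 0.325, with only those groups fitted or without RST day 14 replicate 1, 2 or 4 or RST day 21 replicate 1, 3 or 4. That between days 21 and 35 was lost, with an adjusted p of up to 0.198, with only those groups fitted or without RST day 21 replicate 2 or RST day 35 replicate 3. On day 35 it had 2.37, 1.995, 1.72 and 2.15 CPM, overlapping LST.

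Angpt2, the angiopoietin released by activated endothelium, had 6.27, 5.23, 4.44 and 5.70 CPM on RST day 3 and 5.34, 5.60, 6.91 and 6.81 on day 7, against 2.40, 1.78, 1.70 and 1.89 CPM in LST day 35. Every library of days 3 to 21 lay above LST, and the log2 fold change was 1.47 ± 0.17 on day 3 and 1.66 ± 0.17 on day 7 (edgeR adjusted p = 1.35e-07 and 1.48e-08). The tip cell gene Esm1 averaged 1.07 ± 0.165 CPM on day 3 and 3.44 ± 0.503 on day 7, against 1.06 ± 0.588 in LST (SD, n = 4). It was higher on day 7 by 1.70 ± 0.29 on the log2 scale (edgeR adjusted p = 1.67e-05), with 0.01 ± 0.32 on day 3 (edgeR adjusted p = 0.974).

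Among the 15 junction, adhesion and identity genes, 3 were higher and 5 lower on RST day 3, 7 higher and 1 lower on day 7, 13 higher on day 14 and 7 higher on day 21. Over all genes the shares were 38.6% higher and 30.1% lower on day 3, 41.0% and 35.1% on day 7, 33.4% and 24.5% on day 14, and 21.7% and 5.42% on day 21. Of the general endothelial markers, Pecam1 averaged 59.0 ± 5.28 CPM on day 3, 80.5 ± 5.38 on day 7 and 94.9 ± 11.5 on day 14, against 62.6 ± 7.26 in LST (SD, n = 4). Its log2 fold change was -0.08 ± 0.10, 0.36 ± 0.10 and 0.60 ± 0.10 on those days (edgeR adjusted p = 0.469, 0.00236 and 3.31e-05). Cdh5 was lower on day 3 (-0.47 ± 0.10, edgeR adjusted p = 0.000196) and higher on day 14 (0.33 ± 0.10, edgeR adjusted p = 0.00591).

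Ptprb, the phosphatase that restrains Tie2 and the endothelial cadherin complex (chr10:116275523-116389535, plus strand, mm10), had 28.9, 40.5, 52.0 and 40.0 CPM on RST day 3 and 48.2, 57.1, 44.7 and 43.2 on day 7, against 80.9, 72.2, 94.2 and 100.9 CPM in LST day 35. Both days lay below LST without overlap, by log2 fold changes of -1.11 ± 0.13 and -0.85 ± 0.13 (edgeR adjusted p = 1.61e-07 and 3.97e-06). It was the 1 gene of the 15 that was lower on day 7, and on day 14 it averaged 81.1 ± 6.82 CPM. Robo4 (-0.57 ± 0.10), Mmrn2 (-0.45 ± 0.11) and Nos3 (-0.33 ± 0.11), the endothelial nitric oxide synthase, were also lower on day 3 (edgeR adjusted p = 5.04e-05, 0.000835 and 0.00956).

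Plvap (chr8:71497765-71511752, minus strand, mm10) was among the genes higher from the start. It had 39.2, 34.9, 35.6 and 37.1 CPM on RST day 3 and 62.5, 70.6, 74.1 and 72.5 on day 7, against 18.2, 16.0, 21.9 and 21.1 CPM in LST day 35. The groups did not overlap, and the log2 fold change was 0.93 ± 0.17 on day 3 and 1.86 ± 0.18 on day 7 (edgeR adjusted p = 6.76e-05 and 5.04e-09). Ecscr, a regulator of endothelial migration, had 13.0, 15.4, 14.4 and 15.6 CPM on day 7, against 4.19, 3.15, 5.03 and 3.73 CPM in LST, without overlap. It was higher by 1.18 ± 0.16 on day 3 and 1.86 ± 0.16 on day 7 on the log2 scale (edgeR adjusted p = 1.49e-06 and 1.98e-09), and lower on day 14 than on day 7 by -0.64 ± 0.15 (edgeR adjusted p = 0.00282).

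Icam2, an adhesion molecule of endothelium and platelets, had 8.87, 5.05, 5.30 and 5.39 CPM on RST day 3, against 4.43, 3.19, 5.11 and 4.20 CPM in LST day 35. The ranges overlapped, replicate 1 being far above the other 3, and the log2 fold change of 0.53 ± 0.18 (edgeR adjusted p = 0.0135) was lost without that library or without LST replicate 2 (adjusted p of up to 0.106). Vwf, which encodes von Willebrand factor of endothelium and platelets, passed in none of the comparisons with LST, at 36.3 ± 7.80 CPM on day 3 against 42.4 ± 6.07 (SD, n = 4). Platelet markers were summed at 62.0 to 90.6 CPM on day 3, against 11.1 to 16.7 in LST, with 3 of the 4 tested of 6 passing as higher and 1 as lower, and none at 0 in these groups.

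Of the 4 transcription factors, Erg, which maintains endothelial identity, was near the LST level on RST day 3 and above it from day 7. Erg had 9.01, 8.51, 9.31 and 7.73 CPM on day 3 and 18.6, 19.7, 16.0 and 20.4 on day 7, against 10.6, 9.12, 10.5 and 8.70 CPM in LST day 35. The day 3 libraries overlapped LST and the day 7 libraries did not. Its log2 fold change was -0.17 ± 0.11 on day 3, 0.94 ± 0.11 on day 7 and 0.95 ± 0.11 on day 14 (edgeR adjusted p = 0.189, 1.06e-07 and 4.63e-07).

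Sox18, a SOX factor of blood and lymph endothelium, had 25.0, 28.6, 23.6 and 23.9 CPM on RST day 7, against 13.3, 6.38, 9.97 and 10.6 CPM in LST day 35. The groups did not overlap, and the log2 fold change was 1.33 ± 0.20 (edgeR adjusted p = 3.79e-06). On day 3 it was 0.51 ± 0.21 (edgeR adjusted p = 0.0304), a call lost without any of RST day 3 replicates 1, 2 and 3 or LST replicates 2 and 3 (adjusted p of up to 0.133). Sox7 was higher on day 14 by 0.92 ± 0.19 (edgeR adjusted p = 0.000316). Its calls on days 7 and 21 (0.47 ± 0.19 and 0.57 ± 0.19, edgeR adjusted p = 0.0281 and 0.03) were lost without LST replicate 2 or 3, the first also without RST day 7 replicate 2 or 3 and the second without RST day 21 replicate 1, 2 or 4 (adjusted p of up to 0.103 and 0.105). Sox17, an arterial factor, had log2 fold changes of -0.21 to 0.16 against LST over the 5 days and was the 1 member that did not pass in the test of any change over the RST days (edgeR adjusted p = 0.0887). The other 36 passed that test, as did 79.6% of all genes.

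Of the 37 members, Sele had the largest fold change against LST day 35 on RST days 7, 14 and 21. Sele, E-selectin, which is displayed by cytokine-activated endothelium (chr1:164048234-164057677, plus strand, mm10), had 0.371, 1.14, 0.684 and 0.566 CPM on RST day 3 and 3.81, 5.66, 5.79 and 5.91 on day 7, against 0.0471, 0.137, 0.0852 and 0.205 CPM in LST day 35. The groups did not overlap, but each LST library held only 1 to 4 counts of the gene, so the size of the fold is uncertain. On the log2 scale the change was 2.55 ± 0.80 on day 3, 5.45 ± 0.65 on day 7 and 5.42 ± 0.65 on day 14 (edgeR adjusted p = 0.00715, 1.12e-07 and 6.03e-07). Between day 7 and day 3, with 8 to 178 counts per library, it was 2.90 ± 0.48 (edgeR adjusted p = 6.13e-05).

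Selp, P-selectin, which endothelium and platelets store in granules (chr1:164115264-164150026, plus strand, mm10), had 2.46, 3.15, 3.16 and 3.17 CPM on RST day 3 and 7.16, 10.7, 5.23 and 8.10 on day 14, against 0.942, 1.003, 1.19 and 0.716 CPM in LST day 35. All lay above LST, with log2 fold changes of 1.62 ± 0.46 and 3.004 ± 0.44 (edgeR adjusted p = 0.00352 and 7.71e-06). On day 21 replicate 2 held 9.72 CPM of Sele and 17.1 of Selp, while the other 3 held 1.26 to 2.53 and 3.40 to 5.10 CPM and still lay above LST. Platelet markers, given above beside Vwf, bear on Selp in the same way, and their part was not tested.

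Ackr1, the chemokine-binding receptor of venules, had 4.28, 4.64, 5.60 and 5.37 CPM on RST day 7, against 1.84, 2.05, 1.70 and 3.12 CPM in LST day 35, without overlap. Its log2 fold change was 1.20 ± 0.21 (edgeR adjusted p = 2.15e-05), with 0.32 ± 0.22 on day 3 (edgeR adjusted p = 0.197). Among genes of high endothelial venules, the node vessels that admit lymphocytes, Chst2 and Fut7 were also higher on day 7. Their log2 fold changes were 3.26 ± 0.41 and 3.36 ± 0.54 (edgeR adjusted p = 2.47e-07 and 7.01e-06). Of the 6 genes listed 4 were tested, 3 being higher and 1 lower, beside 41.0% and 35.1% of all genes. In LST day 35, 2 of the 6 were at 0, and which cells expressed these genes was not tested.

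All 4 lymph vessel genes were higher on RST days 7 and 14, beside 41.0% and 33.4% of all genes, and none passed on day 3. Flt4, VEGF receptor 3, had 11.9, 18.9, 13.6 and 15.5 CPM on day 7 and 17.5, 18.8, 14.1 and 17.0 on day 14, against 10.5, 8.07, 9.75 and 9.16 CPM in LST day 35. Both groups lay above LST, with log2 fold changes of 0.68 ± 0.17 and 0.85 ± 0.17 (edgeR adjusted p = 0.00111 and 0.000286). Prox1 was higher by 0.998 ± 0.22 and 1.05 ± 0.22 on these days (edgeR adjusted p = 0.000354 and 0.000452), and Vegfc, the ligand of Flt4, by 0.59 ± 0.15 and 0.61 ± 0.16 (edgeR adjusted p = 0.00157 and 0.00224).

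Mmrn1, a secreted protein of lymph endothelium and platelets (chr6:60924976-60989378, plus strand, mm10), had 1.86, 4.67, 4.74 and 4.19 CPM on RST day 3, 11.2, 16.4, 11.1 and 12.6 on day 14 and 6.88, 9.97, 11.4 and 12.0 on day 35, against 4.80, 4.97, 6.01 and 4.71 CPM in LST day 35. Day 14 and day 35 libraries lay above every LST library. Its log2 fold change was 1.33 ± 0.24 on day 14 (edgeR adjusted p = 9.42e-05) and 0.97 ± 0.25 on day 35 (edgeR adjusted p = 0.0292). Of the 8 other lymph vessel genes tested, 6 were higher on day 7 and 5 on day 14, beside 41.0% and 33.4% of all genes. Those were led by Gja1 and Pdpn, which fibroblasts express too, while Lyve1 and Reln did not pass on day 7. Foxc2, a lymphatic valve factor, was higher by 2.14 ± 0.33 on day 7 (edgeR adjusted p = 5.06e-06).

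**Figure D4:**
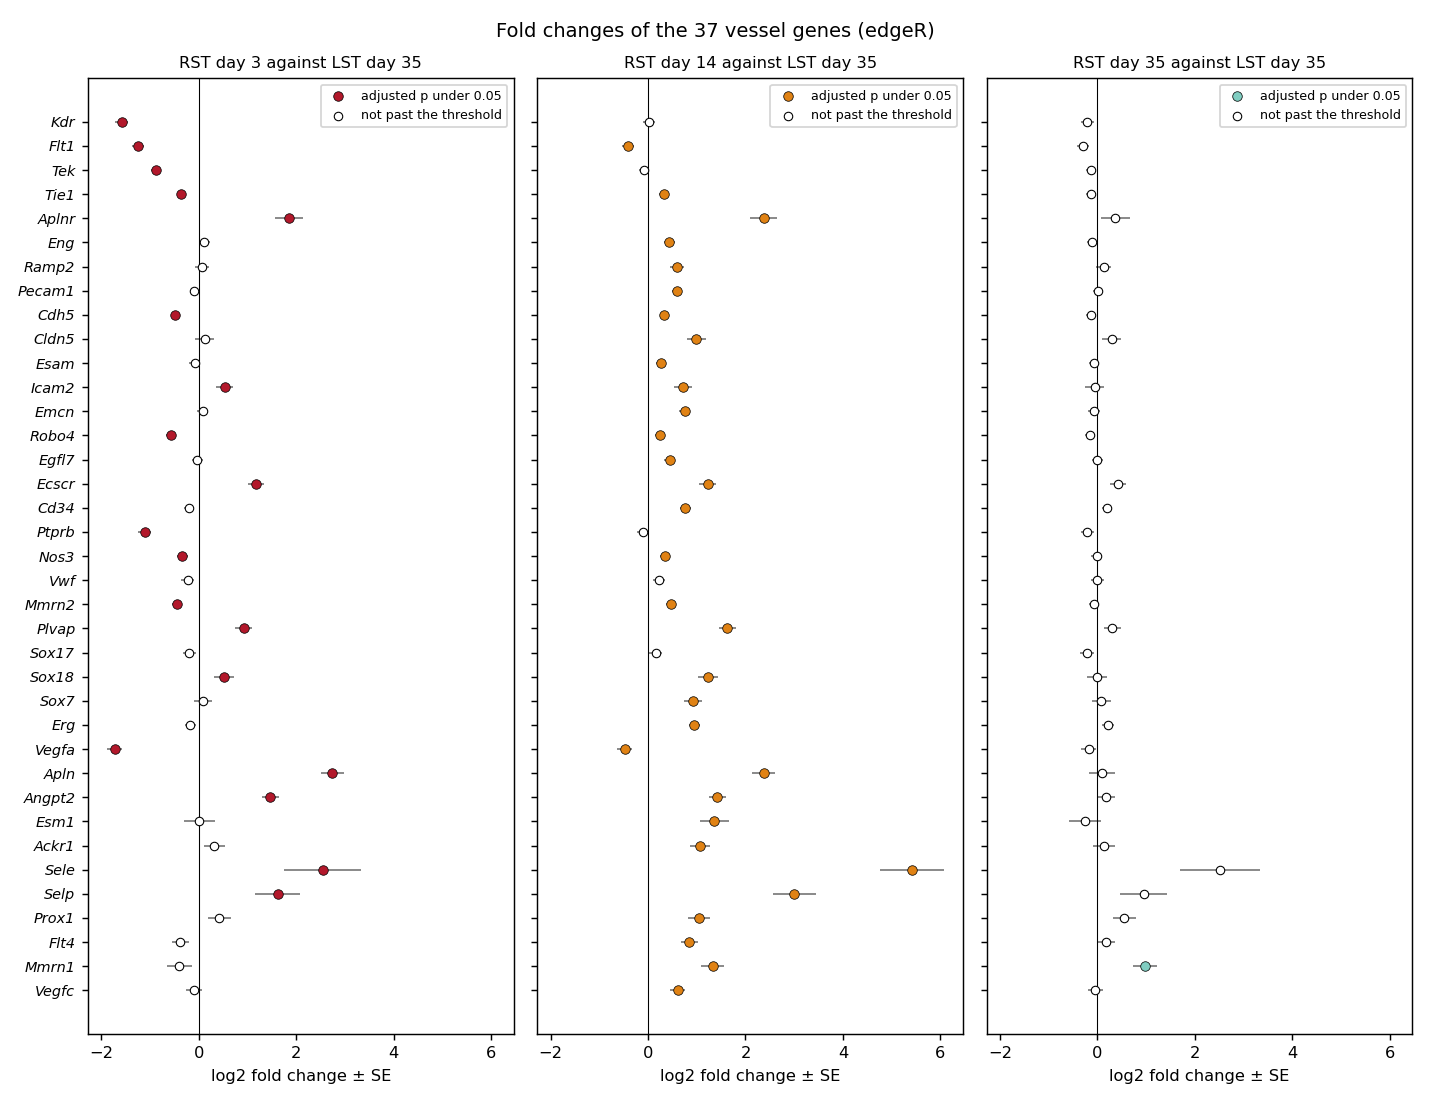
Log2 fold changes with standard errors (edgeR) of the 37 members on RST days 3, 14 and 35 against LST day 35; filled points passed at an adjusted p under 0.05. On day 3, 9 members are higher and 10 lower, on day 14, 30 are higher and 2 lower, and on day 35 only Mmrn1 passed.

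Between RST day 35 and LST day 35, taken on the same day, 1 of 37 members passed, Mmrn1, as did 2.97% of all genes. The members' median log2 fold change was 0.00 beside 0.02 over all genes. By DESeq2, without the filter on low counts, with only these 8 libraries fitted, or with the replicate number as a block, Sele passed as well, at 0.712, 0.971, 0.526 and 0.565 CPM in RST against the LST values above (edgeR adjusted p = 0.111 in the fit used here). The Mmrn1 call was lost, with an adjusted p of up to 0.133, without RST replicate 2, 3 or 4 or LST replicate 1, 2 or 4. Fibroblast markers were still higher on RST day 35 for 6 of 8 genes, with 2650 to 4080 CPM against 1050 to 1170 in LST, and macrophage markers for 4 of 8, and their part was not tested.

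Read from 1 RST day to the next, 25 members were higher and none lower on day 7 than on day 3, while 18.7% of all genes were higher and 22.5% lower. On day 14 compared with day 7, 10 were higher and 2 lower (20.9% and 18.0% of all genes). The 10 were Kdr, Flt1, Tek, Cdh5, Cldn5, Robo4, Ptprb, Vwf, Mmrn2 and Vegfa, and Vegfa was higher by 0.99 ± 0.15 on the log2 scale (edgeR adjusted p = 7.89e-05). The Mmrn2 call was lost in 7 alternative settings (edgeR adjusted p of up to 0.09). That of Robo4 was lost in 2 and that of Cldn5 in 1, each with a library left out (edgeR adjusted p of up to 0.0621 and 0.064). Over the same step 9 of 10 skeletal muscle markers were higher, with a median log2 fold change of 0.81, and their part was not tested.

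On day 21 compared with day 14 only Apln passed, as lower, beside 0.737% of all genes. That count was 13 without RST day 21 replicate 2, 7 without RST day 14 replicate 3 and 0 without any of the other 6 libraries. The count over all genes for this step also varied widely with the library left out, as given at the end. On day 35 compared with day 21, 11 members were lower and none higher (3.89% and 0.0805% of all genes): Aplnr, Emcn, Robo4, Mmrn2, Plvap, Sox18, Apln, Angpt2, Ackr1, Sele and Selp. Plvap had 20.6, 25.1, 25.1 and 24.6 CPM on day 35, against 32.3, 55.5, 28.7 and 51.2 CPM on day 21, without overlap (log2 fold change -0.82 ± 0.17, edgeR adjusted p = 0.0176). No member passed without RST day 21 replicate 2 or with only these 2 groups fitted. The count was 19 without RST day 21 replicate 3, 5 without its replicate 4, and 2, 3 and 1 without RST day 35 replicates 1, 2 and 3. Here too the count over all genes varied widely with the library left out.

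Further lists of vessel growth genes are given for RST day 7 against LST day 35, where 41.0% of all genes were higher and 35.1% lower, and the counts are given as a description beside those shares. Of 12 other genes of the VEGF and angiopoietin families and their response, 7 were higher and 2 lower. Hif1a, the oxygen-sensing factor, was higher by 2.79 ± 0.22 and Vegfb, a ligand of Flt1, lower by -1.80 ± 0.15 on the log2 scale (edgeR adjusted p = 6.54e-10 and 1.36e-09). Of 14 Notch and arterial genes, 8 were higher and 1 lower, led by the guidance receptor Unc5b at 1.54 ± 0.16 (edgeR adjusted p = 1.71e-08) and Ephb4, the venous ephrin receptor, at 1.05 ± 0.11 (edgeR adjusted p = 2.61e-08). Of 14 further endothelial genes, 8 were higher and 2 lower, with the adhesion molecule gene Mcam at 1.51 ± 0.14 and Cd93 at 0.83 ± 0.11 (edgeR adjusted p = 3.71e-09 and 5.87e-07). Of 10 mural cell markers, 6 were higher and 4 lower on day 7, with Acta2, which also marks activated fibroblasts, at 2.77 ± 0.18 and Abcc9, a channel subunit of pericytes, at -1.12 ± 0.15 (edgeR adjusted p = 9.84e-11 and 6.59e-07).

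In the lymph nodes the blood vessel genes had their lowest mean on the implant side. Their mean log2 CPM was 4.58 ± 0.10 in Implant, 5.09 ± 0.56 in ContraImplant and 4.88 ± 0.07 in NoImplant nodes on day 7 (SD, n = 3 each). On day 14 it was 4.80 ± 0.06 in Implant, 5.11 ± 0.11 in ContraImplant and 5.34 ± 0.26 in NoImplant nodes, and on both days every Implant library lay below every library of the other groups of that day. Lymph vessel genes averaged 4.04 ± 0.24, 4.77 ± 0.20 and 4.12 ± 0.27 in Implant, ContraImplant and NoImplant nodes on day 7, and 4.43 ± 0.32, 4.82 ± 0.32 and 5.08 ± 0.30 on day 14.

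On day 14, 8 of 37 members were lower in Implant than in NoImplant nodes and none higher, while 2.53% of all 18312 genes tested were lower and 3.44% higher. They were Kdr, Tie1, Ramp2, Cldn5, Robo4, Ecscr, Flt4 and Mmrn1, and the median over the 37 was -0.59 on the log2 scale beside -0.00 over all genes. The count rested on single libraries: it was 13 without NoImplant replicate 1, 2 without Implant replicate 1, and 0 without NoImplant replicate 2 or 3 or Implant replicate 2 or 3. DESeq2 called 13 members, beside 2437 of all genes. The edgeR count over all genes also varied widely with the library left out, as given at the end.

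Cldn5, which seals endothelial junctions (chr16:18776847-18778262, plus strand, mm10), had 84.4, 95.3 and 68.5 CPM in Implant day 14 nodes, against 160, 170 and 302 CPM in NoImplant day 14 nodes. The groups did not overlap, and the log2 fold change was -1.35 ± 0.23 (edgeR adjusted p = 0.0242). Kdr had 79.0, 97.6 and 82.0 CPM in Implant nodes, against 123, 171 and 214 CPM in NoImplant nodes, also without overlap (-0.97 ± 0.22, edgeR adjusted p = 0.0287). Ramp2, at 58.1, 62.0 and 55.2 CPM in Implant against 95.5, 82.0 and 104 CPM in NoImplant nodes, was lower by -0.68 ± 0.14 on the log2 scale (edgeR adjusted p = 0.0245).

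Both lymph vessel genes among the 8 showed the same order. Flt4 (chr11:49609263-49652739, plus strand, mm10) had 36.9, 56.1 and 45.8 CPM in Implant day 14 nodes, against 69.4, 75.5 and 120 CPM in NoImplant nodes (-0.93 ± 0.22, edgeR adjusted p = 0.0304). Mmrn1 had 17.3, 30.8 and 27.9 CPM in Implant day 14 nodes, against 33.9, 62.2 and 58.7 CPM in NoImplant nodes (-1.03 ± 0.29, edgeR adjusted p = 0.048). Neither gene overlapped between these groups. Platelet markers, which bear on Mmrn1, were summed at 70.4 to 111 CPM in Implant and 88.0 to 156 CPM in NoImplant day 14 nodes, and their part was not tested. Among other lymph vessel genes, Lyve1 and Reln were lower as well, by -0.87 ± 0.19 and -1.86 ± 0.45 (edgeR adjusted p = 0.026 and 0.0323), 3 of 8 being lower.

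On day 7, Implant and ContraImplant nodes of the same mice differed in 1 member, Cldn5, while 0.715% of all genes passed. Cldn5 had 49.8, 44.9 and 56.1 CPM in Implant nodes, against 93.7, 148 and 106 CPM in ContraImplant nodes, without overlap (-1.21 ± 0.24, edgeR adjusted p = 0.0384). With the animal number as a block no member passed (19 genes in all). The count of members was 24 without ContraImplant replicate 1, 14 without its replicate 3, and 0 without ContraImplant replicate 2 or any Implant library. The count over all genes varied widely with the library left out as well, as given at the end. ContraImplant replicate 2 had the highest blood vessel mean, 5.73 against 4.78 and 4.76, and without it the Implant minus ContraImplant difference was -0.19, against -0.51 with it. For lymph vessel genes the difference was -0.73 with that library and -0.63 without it.

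**Figure D5:**
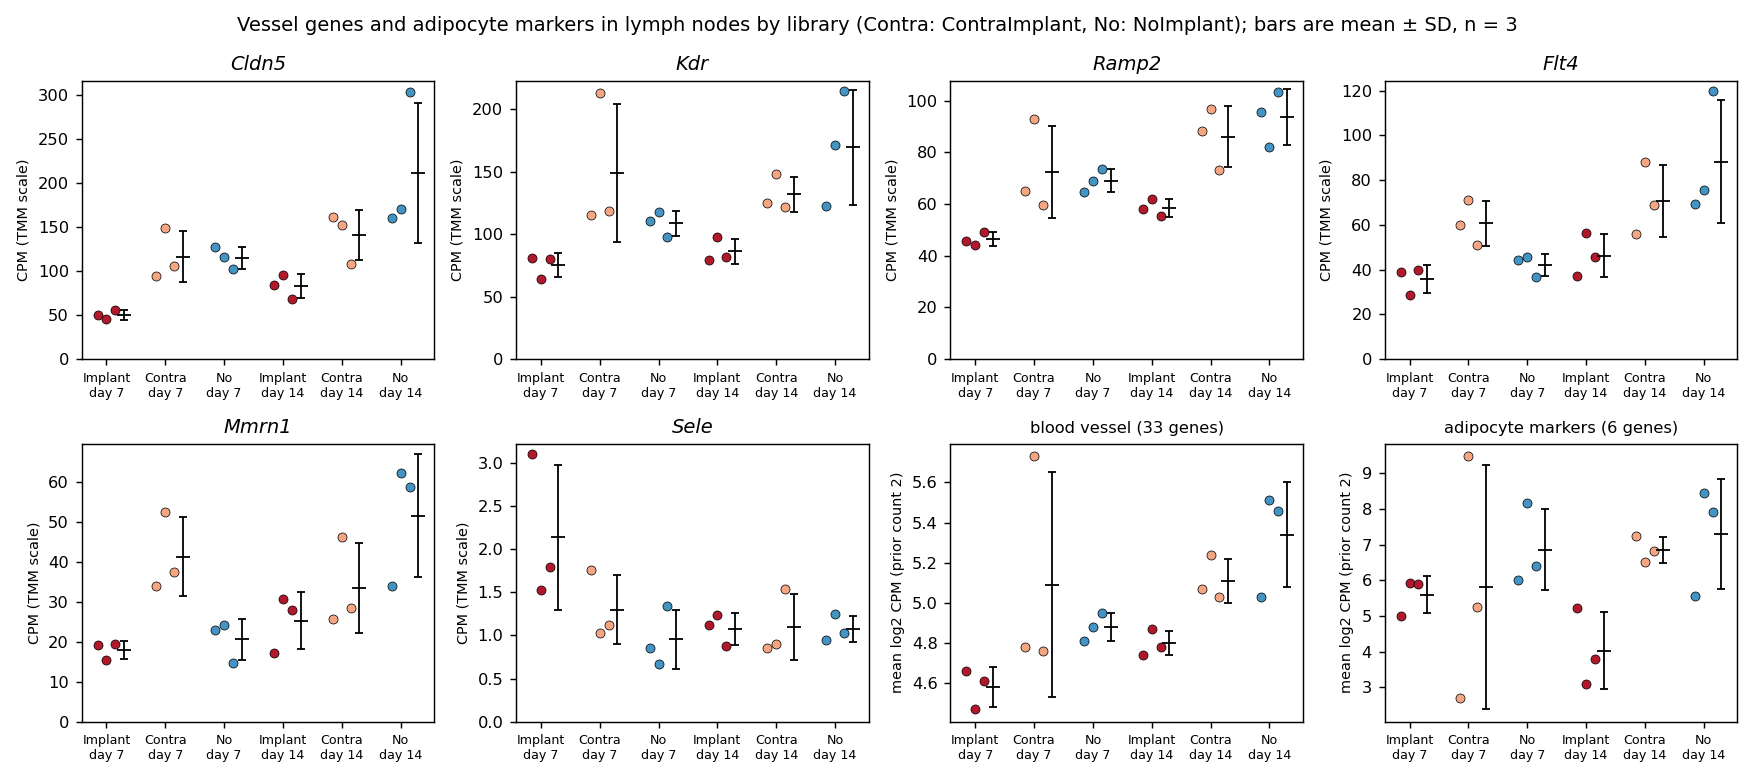
CPM on the TMM scale of 6 members, and mean log2 CPM (prior count 2) of the 33 blood vessel genes and 6 adipocyte markers, in each lymph node library by group, with mean and SD at the right of each group (n = 3). Cldn5 lies lower in the Implant libraries than in the other groups of the same day, and adipocyte markers are highest in ContraImplant day 7 replicate 2 at 9.47.

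No member passed between Implant and NoImplant nodes on day 7 by edgeR, where 0.0437% of all genes passed. There were 13 members with an unadjusted p under 0.05, 11 of them lower in Implant nodes, and DESeq2 called 6. Over all 18312 genes tested, 3326 had an unadjusted p under 0.05 and DESeq2 called 734. Ecscr had 23.4, 22.4 and 23.6 CPM in Implant against 26.3, 27.5 and 27.9 in NoImplant day 7 nodes, and Plvap 356, 327 and 364 against 420, 482 and 526 CPM, without overlap. Plvap's log2 fold change was -0.45 ± 0.13 on day 7 and -0.45 ± 0.13 on day 14 (edgeR adjusted p = 0.118 and 0.0595).

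The selectins lay higher in Implant than in NoImplant nodes on day 7, but neither passed, and Sele overlapped between Implant and ContraImplant nodes. Sele had 3.10, 1.53 and 1.79 CPM in Implant, 1.75, 1.02 and 1.12 in ContraImplant and 0.851, 0.673 and 1.34 in NoImplant day 7 nodes. All Implant libraries lay above the NoImplant ones, by a log2 fold change of 1.17 ± 0.33 that did not pass (edgeR adjusted p = 0.107). Selp had 6.15, 6.55 and 4.94 CPM in Implant, against 3.02, 2.21 and 3.23 CPM in NoImplant day 7 nodes (1.06 ± 0.37, edgeR adjusted p = 0.156). On day 14 Sele averaged 1.08 ± 0.183 CPM in Implant, 1.10 ± 0.378 in ContraImplant and 1.08 ± 0.153 in NoImplant nodes (SD, n = 3 each).

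The other node members named by the rule did not pass. Erg had 15.6 to 18.8 CPM in Implant and 19.8 to 20.7 in NoImplant day 7 nodes (-0.27 ± 0.22, edgeR adjusted p = 0.544), and 23.9 and 26.7 CPM in ContraImplant day 7 replicates 1 and 3, beside 49.95 in replicate 2. Sox18 had 31.5 to 45.8 CPM in Implant and 54.8 to 63.6 in NoImplant day 7 nodes (-0.68 ± 0.21, edgeR adjusted p = 0.124). Ackr1 had 10.6 to 12.5 CPM in Implant and 15.7 to 20.8 in NoImplant day 14 nodes (-0.65 ± 0.19, edgeR adjusted p = 0.0572). Those 3 pairs did not overlap, whereas Vegfa, at 44.5 to 62.0 CPM in Implant and 44.8 to 113 in NoImplant day 14 nodes, did (-0.67 ± 0.28, edgeR adjusted p = 0.139), as did Angpt2 (7.16 to 10.04 in Implant and 7.74 to 12.9 CPM in NoImplant day 14 nodes; -0.22 ± 0.22, edgeR adjusted p = 0.546).

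The remaining node comparisons gave 0 members by edgeR, with 0% of all genes passing in each but 1. Between ContraImplant and NoImplant nodes, 7 members on day 7 and 2 on day 14 had an unadjusted p under 0.05, and DESeq2 called 0 on either day. Over all 18312 genes, 1349 and 1062 had such a p, and DESeq2 called 0 and 23. Between Implant and ContraImplant day 14 nodes 7 members had such a p (all lower in Implant) and DESeq2 called 0, beside 1550 and 11 of all genes. Between day 14 and day 7 of Implant nodes these counts were 10 and 0, beside 1566 and 53 of all genes. Between day 14 and day 7 of NoImplant nodes, where 0.0164% of all genes passed, 20 members had an unadjusted p under 0.05 and DESeq2 called 8. Over all genes these counts were 3456 and 791. The change of the Implant effect from day 7 to day 14 was tested as an interaction, and no member passed against NoImplant (3 with an unadjusted p under 0.05) or ContraImplant (0), with 0 by DESeq2. Of all genes, 921 and 334 had such a p, and DESeq2 called 5 and 0. Without ContraImplant day 7 replicate 2, the counts of ContraImplant against NoImplant day 7 and of the interaction with ContraImplant were 0 as well.

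Markers of other cell types also differed between node libraries. Adipocyte markers, none at 0 in a group, were summed at 125 to 494 CPM in Implant, 1330 to 2340 in ContraImplant and 663 to 3800 in NoImplant day 14 nodes, with 0 of 6 passing between Implant and NoImplant. On day 7 they were 285 to 680 CPM in Implant, 73.1 to 7810 in ContraImplant and 804 to 3490 in NoImplant nodes. Within NoImplant day 14 nodes, replicate 1 had the lowest adipocyte mean, 5.55 against 8.44 and 7.91, and the lowest blood vessel mean, 5.03 against 5.51 and 5.46 log2 CPM. Within Implant day 14 nodes the order differed. There replicate 1 had the highest adipocyte mean, 5.21 against 3.1 and 3.78, and the lowest blood vessel mean, 4.74 against 4.87 and 4.78. Skeletal muscle markers were summed at 18.7 to 152 CPM in Implant, 16.8 to 816 in ContraImplant and 18.2 to 1320 in NoImplant day 7 nodes, and at 15.6 to 22.9 in the day 14 groups. Macrophage markers were lower in Implant than in ContraImplant day 7 nodes for 2 of 8, and lower in Implant than in NoImplant day 14 nodes for 1 of 8. Fibroblast markers were higher in Implant than in NoImplant day 14 nodes for 3 of 8 and lower for 1, with summed levels of 1810 to 2300 CPM in Implant against 1660 to 1960 in NoImplant, and higher than in ContraImplant day 7 nodes for 3 of 8. B cell markers were summed at 3350 to 4320 CPM in Implant against 2180 to 3120 in NoImplant day 14 nodes, without overlap, with 1 of 6 passing as higher. Cell cycle genes were summed at 327 to 454 CPM in Implant, 133 to 435 in ContraImplant and 125 to 221 in NoImplant day 7 nodes. The Implant range thus overlapped that of ContraImplant but not that of NoImplant nodes. On day 14 the sums were 177 to 240, 166 to 191 and 131 to 319 CPM in the same order. None of these 4 lists had a marker at 0 in a group. The part of these cell types in the vessel gene differences was not tested.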

How the data were processed

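RNA of 24 joint soft tissue and 18 lymph node libraries was measured by sequencing, with NEBNext library kits per the labels' protocols. The authors deposited 1 table per tissue, whose values are raw counts of reads in each gene. Reads were handled with fastp, STAR and the mm10 build, per the submitters' processing notes. No version, counting program, annotation or strand setting is named in the labels or headers, so genes that overlap another cannot be told apart from it with certainty. Per the deposited tables, 36591 of 36604 joint and 54723 of 54752 node identifiers matched GENCODE M21 symbols; no gene was at 0 in every joint library and 17552 were at 0 in every node library.

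Each tissue was fitted once over all its groups with edgeR 4.0.16 (R 4.3.3), with filterByExpr at a minimum count of 10, TMM factors (0.808 to 1.37) and the quasi-likelihood F test, adjusted by Benjamini-Hochberg over all genes tested, with a threshold of 0.05. SEs were taken from the log2 fold change and its F. The steps were tested on simulated data. Means of log2 CPM used a prior count of 2 (alternative 0.5). Alternatives were DESeq2 1.42.0, upper quartile scaling, no filter, only the compared groups in the fit, a replicate block and leaving out each library. The members and all gene lists were chosen with earlier results of these data known. Values per library are given for the members of smallest p in each role group and those called against their group's median, and of other lists at most the 4 genes of smallest adjusted p. Replicates differed beyond counting noise, with chi-square per degree of freedom of at least 8.27 in joint and 11.6 in node libraries over genes with at least 20 summed counts. Depth ranged from 17842090 to 28024003 counts in joint and 22041900 to 44371001 in node libraries. Implant and ContraImplant nodes share animal numbers in the labels, and their deviations correlated at 0.106 to 0.352 on day 7 and 0.179 to 0.402 on day 14, so they were treated as pairs in the block. Ccl21a was left out because its identifier was ambiguous. Promoter windows came from RefSeq.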

Additional observations from a re-analysis of the deposited data

Results flagged for a closer look

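In 14 of 234 groups of 4 joint libraries examined, 1 library lay far from the other 3, measured by its gap to the nearest of them as a share of the group's range; chance flags about 1 in 20 groups, or 11.7 here. Tek had 19.1 CPM in RST day 3 replicate 3 and Mmrn2 15.2 CPM in the same library. Icam2 had 8.87 CPM and Selp 2.46 CPM in RST day 3 replicate 1. Sele had 3.81 CPM in RST day 7 replicate 1, below the others, and Cdh5 had 125 CPM in RST day 14 replicate 1, above them.

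On day 21, RST replicate 2 stood high for Sele (9.72 CPM), Selp (17.1 CPM) and Vegfc (3.99 CPM), while replicate 3 stood low for Sox7 (5.54 CPM) and high for Vegfa (294 CPM). On day 35, RST replicate 1 stood low for Vwf (34.8 CPM) and Plvap (20.6 CPM), and LST replicate 1 stood high for Esm1 (1.93 CPM, against 0.665 to 0.866 in the other 3).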

How the results depend on the processing

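In the joint tissue, no call of a member and no difference of the blood or lymph vessel means changed sign under any alternative run, and the counts of members for RST days 3, 7, 14 and 21 against LST day 35, for day 7 against day 3 and for day 14 against day 7 stayed within 1.5 times. The later steps did not. For RST day 35 against LST day 35, where 1 member passed, 2 did by DESeq2, 2 without the filter, 2 with only the compared groups, 2 with the replicate block and 0 to 1 leaving out 1 library. For day 21 against day 14 (1 member), 3 passed by DESeq2, 2 without the filter, 0 with only the compared groups and 0 to 13 leaving out 1 library. For day 35 against day 21 (11 members), 18 passed by DESeq2, 0 with only the compared groups and 0 to 19 leaving out 1 library.

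In the nodes, 6 members passed for Implant against NoImplant day 7 by DESeq2, 1 without the filter and 15 with only the compared groups, where the fit used here gave 0. For Implant against ContraImplant day 7 (1 member), 19 passed by DESeq2, 7 without the filter, 4 with upper quartile scaling, 0 with only the compared groups, 0 with the replicate block that pairs nodes by animal, and 0 to 24 leaving out 1 library. For Implant against NoImplant day 14 (8 members), 13 passed by DESeq2 and 0 to 13 leaving out 1 library. With only the compared groups, 3 passed for Implant against ContraImplant day 14 and 1 for Implant day 14 against day 7, where the fit used here gave 0. For NoImplant day 14 against day 7 (0 members), 8 passed by DESeq2, 2 without the filter and 0 to 3 leaving out 1 library. The blood vessel mean of ContraImplant minus NoImplant day 7 nodes was 0.22, and -0.11 without ContraImplant replicate 2; the lymph vessel mean of Implant minus NoImplant day 7 nodes was -0.09, and 0.05 without Implant replicate 2 or 0.01 without NoImplant replicate 2. The cause of these shifts was not tested.

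Over all genes, 4375 passed for RST day 21 against LST day 35, and 2502 without RST day 21 replicate 2. Leaving out 1 library gave 182 to 544 for RST day 35 against LST (479 with all), 2 to 4466 for day 21 against day 14 (119), 35 to 1884 for day 35 against day 21 (641), 0 to 2030 for Implant against ContraImplant day 7 (131), 0 to 1557 for Implant against NoImplant day 14 (1094), 0 to 4 for Implant against NoImplant day 7 (8) and 0 to 327 for NoImplant day 14 against day 7 (3). In that order of comparisons, DESeq2 gave 783, 1218, 1216, 1113, 2437, 734 and 791, and only the compared groups gave 915, 0, 0, 0, 620, 1105 and 0. Without the filter, 751, 570, 1139 and 231 passed in the first 4 of these, 55 for Implant against NoImplant day 7 and 23 for NoImplant day 14 against day 7. The block gave 372 for day 21 against day 14, 19 for Implant against ContraImplant day 7 and 2 for Implant against NoImplant day 7. In that last comparison the block went by replicate number, and same-numbered nodes came from different mice. Where edgeR gave 0 over all genes, DESeq2 gave 11 for Implant against ContraImplant and 23 for ContraImplant against NoImplant on day 14, 53 for Implant day 14 against day 7 and 5 for the interaction with NoImplant, and only the compared groups gave 136 for Implant against ContraImplant day 14 and 178 for Implant day 14 against day 7. Joint replicate numbers are not said to pair samples, and deviations of same-numbered joint libraries correlated at -0.366 to 0.678. A block could not be fitted between days within a node group. Upper quartile scaling moved the median of all genes by at most 0.06 on the log2 scale. With 3 nodes per group and 1 to 4 counts of Sele in LST libraries, small differences were not detectable at this depth and number.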
